A study of Rattus norvegicus with 547 samples.

Results

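Methylendianiline (MDA) was given to cultivated rat hepatocytes at 3 concentrations, and its 18 arrays were taken out of a series of 547 by their titles, which name the compound, the level and the kind of array. At each level there were 3 arrays of treated cells and 3 arrays of solvent controls. The cells came from male Wistar rats, were kept as sandwich cultures in 6-well dishes and were incubated for 24 h with 9.81 µM (high), 3.27 µM (middle) or 1.09 µM (low) MDA, or with solvent alone. Treated and control cells were of the same strain, sex and culture, and differed by the compound. Per the design text, each level was run on hepatocytes of 3 rats prepared on separate days, and treated and control wells shared a dish. The pair of a treated and a control array that carry 1 replicate number is called a dish here. The submitters place MDA among the genotoxic compounds. The series holds 28 other compounds, most of them also at 3 levels, and cells taken before incubation.

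MDA is an aromatic diamine used to make polyurethanes and epoxy resins. In rats it is known to injure the epithelium of the bile ducts and the liver cells, and to cause liver tumours. Hepatocytes acetylate and oxidise aromatic amines, and some of the oxidised products bind to DNA and protein. A hepatocyte culture holds the cells that carry out this metabolism, without the bile ducts and the blood supply of the liver.

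Values are log2 expression levels, so a difference of 1 is a 2-fold change. They lay between 2.10 and 14.6 on these arrays. No file used here gives the gene of a probe set. Responses are therefore given for probe sets under their own IDs, at most 2 higher and 2 lower in each comparison, and neither the hepatocyte markers nor any pathway list could be examined. The exceptions are the array maker's control probe sets, whose IDs name beta-actin, GAPDH, hexokinase and 5S rRNA. Precision is limited throughout by how few arrays there are per group.

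On 3 of the 9 treated arrays the hybridization spike-in signal was missing. Spike-ins are bacterial and bacteriophage transcripts that are added in known amounts to the labelled sample before it is put on the array. The mean of their 9 probe sets was 3.81 and 3.64 in high treated replicates 1 and 3, and 3.64 in low treated replicate 2. It was 9.15 to 9.998 on the other 15 arrays, which included all 9 controls, all 3 middle treated arrays and high treated replicate 2. In the whole series 16 arrays, from 4 compounds, lacked the signal, and no array lay between 3.84 and 8.63. The upper end of the values was also lower on these 3 MDA arrays, with a 95% quantile of 8.86 to 9.16 against 9.28 to 9.55 on the controls and 9.27 to 9.52 on the other treated arrays. Their medians were higher, at 5.57 to 5.61 against 5.44 to 5.52 on the controls. The middle treated arrays, which had the signal, also differed in these directions from their own controls, without overlap. Their 95% quantiles were 9.27 to 9.46 against 9.49 to 9.53, and their medians 5.49 to 5.52 against 5.44 to 5.45. Only 1 high dish had the spike-in signal on both arrays, and each result at the high level is set beside that dish and the middle level.

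**Figure D1:**
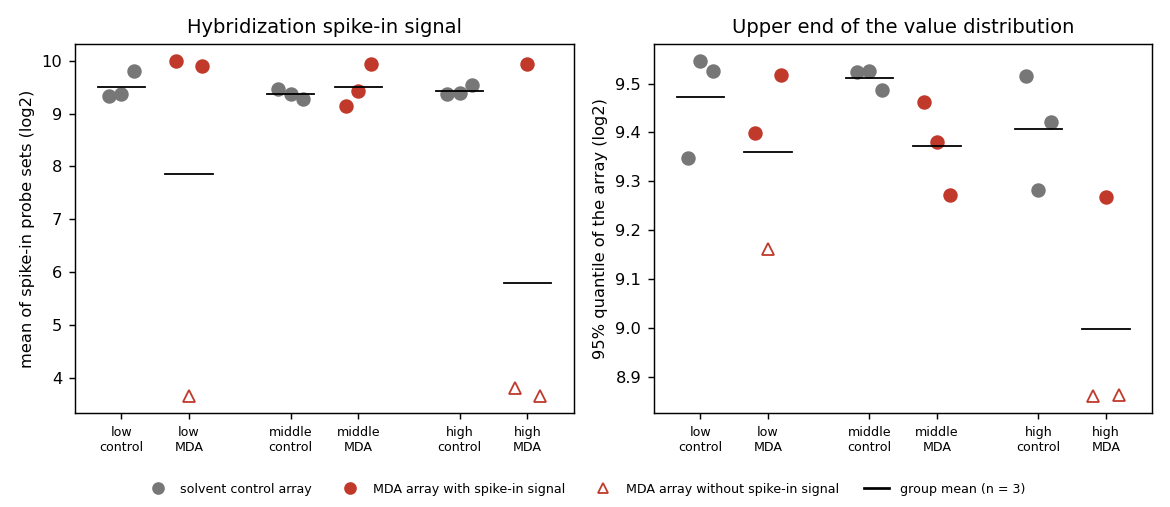
Mean hybridization spike-in signal (left) and 95% quantile of all probe sets (right) on the 18 arrays, both on the log2 scale, by level; points are arrays and lines are group means. The 3 treated arrays without spike-in signal (open triangles, 3.64 to 3.81) also have the lowest 95% quantiles, 8.86 to 9.16.

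The first comparison asked what each concentration did to the hepatocytes. At 9.81 µM, 6119 of 31042 probe sets changed (19.7%), 2380 of them upward (7.67%) and 3739 downward (12%), by limma on dish differences with a Benjamini-Hochberg adjusted p under 0.05. Of the 1633 probe sets that changed at least 2-fold (5.26%), 111 rose (0.358%) and 1522 fell (4.9%). At 3.27 µM and at 1.09 µM limma called 0 probe sets (0%), with 1180 (3.8%) and 3953 (12.7%) at an unadjusted p under 0.05. No probe set was thus called at both the high and the middle level. The count at the high level moved with the dishes used: leaving out replicate 1 gave 388, leaving out replicate 2 gave 13806 and leaving out replicate 3 gave 1001. With only high dish 2 kept, the 3 dishes that lack spike-in signal being left out and the spread taken from the remaining dishes of all levels, it was 296, of which 165 were higher and 131 lower. In high dish 2 by itself, with no test, 239 probe sets were at least 2-fold higher and 225 at least 2-fold lower, so the excess of large falls was not seen there.

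Among the probe sets called at the high level, the strongest rise that had the same sign in all 6 high and middle dishes, ranked by the mean of the high and middle differences, was 1387243_at. Its level in high controls 1 to 3 was 7.62, 8.59 and 8.44, and in the treated arrays 9.65, 10.48 and 10.16. Every treated array lay above every control, including the 1 treated array with spike-in signal, which was the highest. The dish differences were 2.03, 1.89 and 1.72, and their mean of 1.88 ± 0.16 (SE, 3 dishes) gave a limma adjusted p of 4.07e-05. In the middle group the controls were at 9.43, 8.59 and 8.76 and the treated arrays at 9.76, 9.70 and 9.60. The groups did not overlap there either, and the difference was 0.76 ± 0.16 with a limma adjusted p of 0.924. At the low level the 3 controls were at 7.49, 7.49 and 7.53 and the treated arrays at 8.36, 7.95 and 8.0, again without overlap, with a difference of 0.60 and a limma adjusted p of 0.278. Groups with all treated arrays above all controls were found for 20.6% of all probe sets at the high level, 12.6% with 3.27 µM and 10% with 1.09 µM. The control means of 1387243_at differed between the concentrations, at 8.22 (high), 8.93 (middle) and 7.50 (low), so its levels are compared only within a concentration.

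The rise of 1378691_at was strong at the high level and its differences were small below it. The high controls were at 5.10, 4.70 and 4.80 and the treated arrays at 7.10, 7.74 and 6.80. The treated arrays stood well clear of the controls, and the highest was the one with spike-in signal. Its mean difference was 2.34 ± 0.21 (SE, 3 dishes; limma adjusted p = 6.86e-05). In the middle dishes the differences were 0.15, 0.06 and 0.41, with a mean of 0.21. The difference between the high and the middle response was 2.14 ± 0.30, with a limma adjusted p of 0.0105. On high dish 2 alone the difference was 3.04 ± 0.19, with the spread taken from the other dishes with spike-in signal, and the limma adjusted p was 0.000497.

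The strongest fall with the same sign in all 6 dishes was that of 1395840_at. High controls 1 to 3 were at 8.31, 5.42 and 7.39 and the treated arrays at 4.45, 4.0 and 3.25. The groups did not overlap, but the controls were spread over more than 2 log2 units and the lowest of them belonged to dish 2. The dish differences were -3.87, -1.41 and -4.14, the smallest in size being that of the dish with spike-in signal. Treated arrays 2 and 3, at 4.0 and 3.25, were near or below the 3.64 to 3.81 of the spike-in probe sets on arrays without the signal. The sizes of the falls, that of dish 2 from a control at 5.42 included, may be limited by this low end, which was not tested. The mean was -3.14 ± 0.47 (SE, 3 dishes; limma adjusted p = 0.00105), and without the 3 dishes that lack the signal it was -1.41 ± 0.56 with a limma adjusted p of 0.388. The call was also lost without replicate 1, at -2.78, and in the unpaired fit without the 2 high arrays that lack the signal, at -3.03. With 3.27 µM the controls were at 7.02, 7.37 and 5.78 and the treated arrays at 6.12, 5.82 and 4.77. Each treated array was lower than its own control there, by 0.89 to 1.54 on the log2 scale, while the groups overlapped. At the low level the treated arrays were at 4.94, 5.15 and 7.33 against controls between 7.39 and 7.56, and the second of these arrays lacks spike-in signal. The mean difference was -1.15 with 3.27 µM and -1.65 with 1.09 µM, with limma adjusted p-values of 0.924 and 0.278.

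The values of 1384147_at were arranged in much the same way. Its high controls were at 8.97, 5.40 and 7.99 and the treated arrays at 5.62, 3.84 and 3.78. These groups overlapped, because control 2 was lower than treated array 1. The mean difference was -3.04 ± 0.53 (SE, 3 dishes; limma adjusted p = 0.00267) at the high level and -1.03 at the middle level. At the high level it lost the call without replicate 1, at -2.89, without the 3 dishes that lack spike-in signal, at -1.56, and in the unpaired fit without the 2 high arrays that lack it, at -3.61. In the low dishes it stood at 4.99, 5.68 and 8.05 after treatment against 8.49, 7.96 and 8.03, so dishes 1 and 2 were lower and dish 3 was not.

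**Figure D2:**
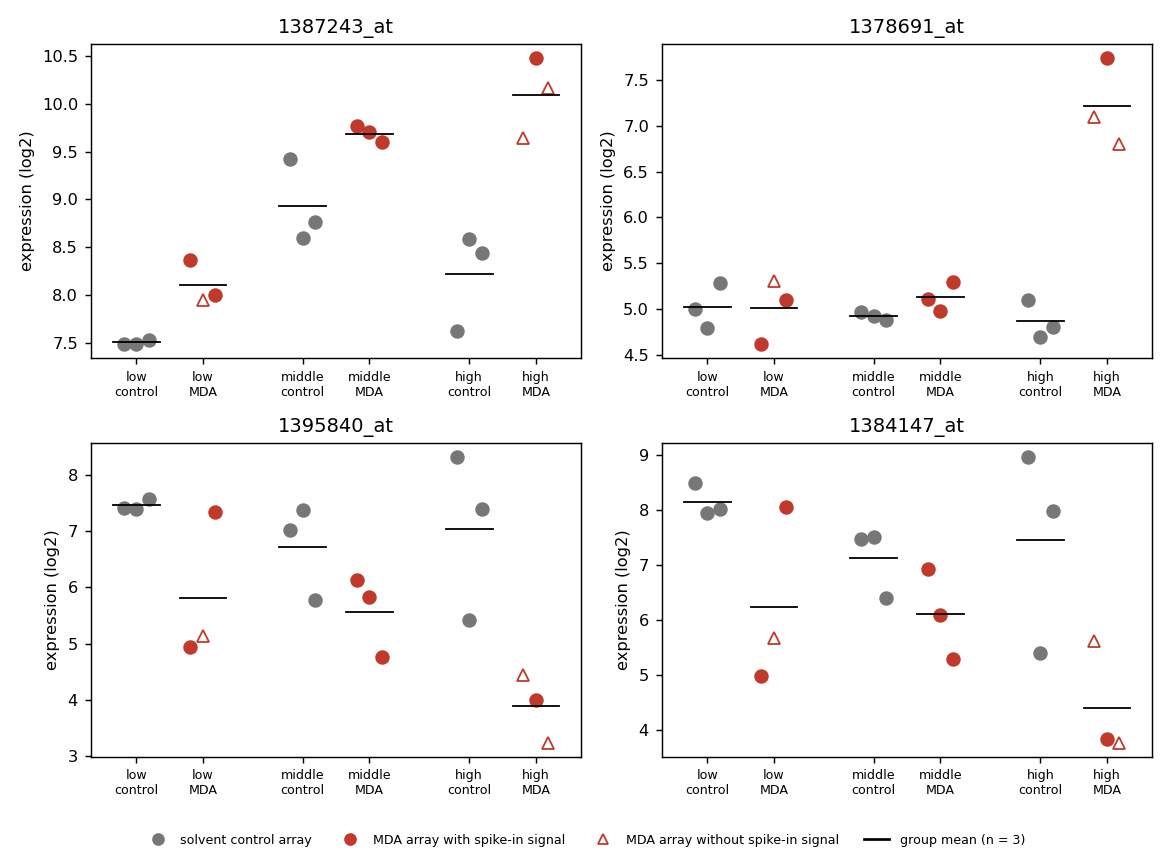
Expression (log2) of 4 probe sets on the 18 arrays by level; points are arrays, open triangles are treated arrays without spike-in signal and lines are group means. The rises of 1387243_at and 1378691_at at the high level include the array with spike-in signal (10.48 and 7.74), while the falls of 1395840_at and 1384147_at come with controls spread from 5.42 to 8.31 and from 5.40 to 8.97.

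The large rises and the large falls of the high level were then followed through all 9 dishes. The 111 probe sets with at least 2-fold rises had a median difference of 1.32, 1.47 and 1.21 in high dishes 1, 2 and 3. The dish with spike-in signal thus showed them as strongly as the others, and 100 of the 111 were at least 2-fold higher in it. The 1522 probe sets with at least 2-fold falls had medians of -1.65, -0.55 and -1.81 in the same dishes. In dish 2, 94.0% of them were lower, but only 213 were at least 2-fold lower. Dish 2 entered the choice of these probe sets, so these shares are descriptions of the dishes. The same 1522 probe sets had medians of -0.19, -0.53 and -0.37 in the middle dishes and -0.75, -0.94 and -0.10 in the low dishes, where dish 2 is the one without spike-in signal. The 111 rises had medians of 0.08, 0.42 and 0.27 in the middle dishes and 0.44, 0.04 and 0.21 in the low dishes. Dishes 1 and 3 of the high level differ from dish 2 both in the rat and in the spike-in signal, and the 2 cannot be told apart from these arrays.

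**Figure D3:**
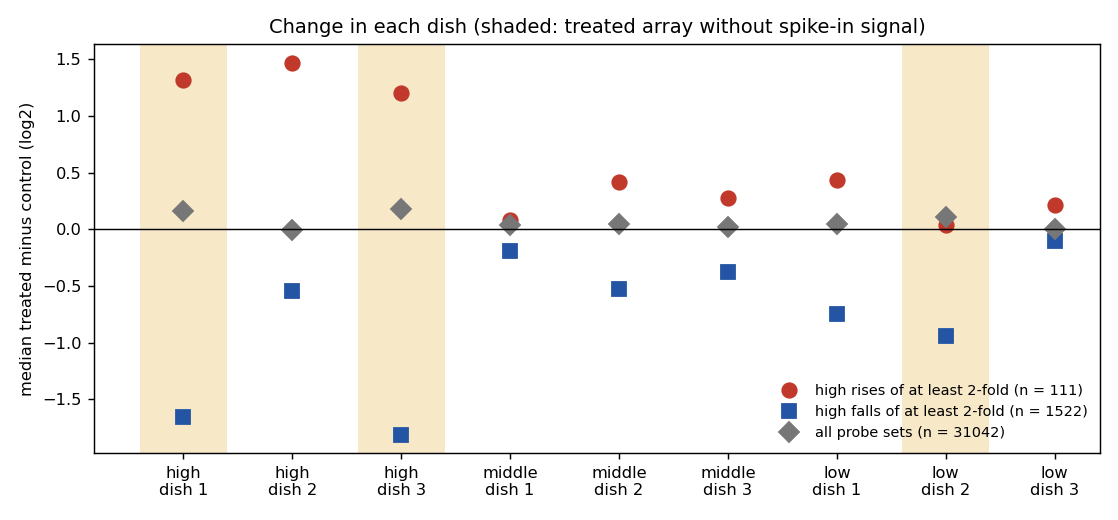
Median treated minus control difference (log2) in each of the 9 dishes, for the 111 probe sets that rose and the 1522 that fell at least 2-fold at the high level, and for all 31042 probe sets. The rises are of like size in the 3 high dishes (1.21 to 1.47), the falls are 0.55 deep in high dish 2 and 1.65 and 1.81 deep in the shaded high dishes.

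Across all 31042 probe sets the response of a dish resembled that of other dishes to very different degrees. High dishes 1 and 3, both without spike-in signal, correlated at r = 0.84. High dish 2 correlated at r = 0.39 and 0.38 with them. Low dish 2, which received a concentration 9 times lower but also lacks the signal, correlated at r = 0.73 and 0.72 with high dishes 1 and 3 and at r = 0.11 with high dish 2. Middle dish 2, with the signal present, correlated at r = 0.61 and 0.64 with high dishes 1 and 3. Of the other dishes with the signal, middle dish 3 correlated with them at 0.56 and 0.52, low dish 1 at 0.45 and 0.47, middle dish 1 at 0.36 and 0.39 and low dish 3 at 0.11 and 0.15. Probe sets are no independent replicates, so these correlations describe the dishes without a test, and the dishes do not share control arrays.

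**Figure D4:**
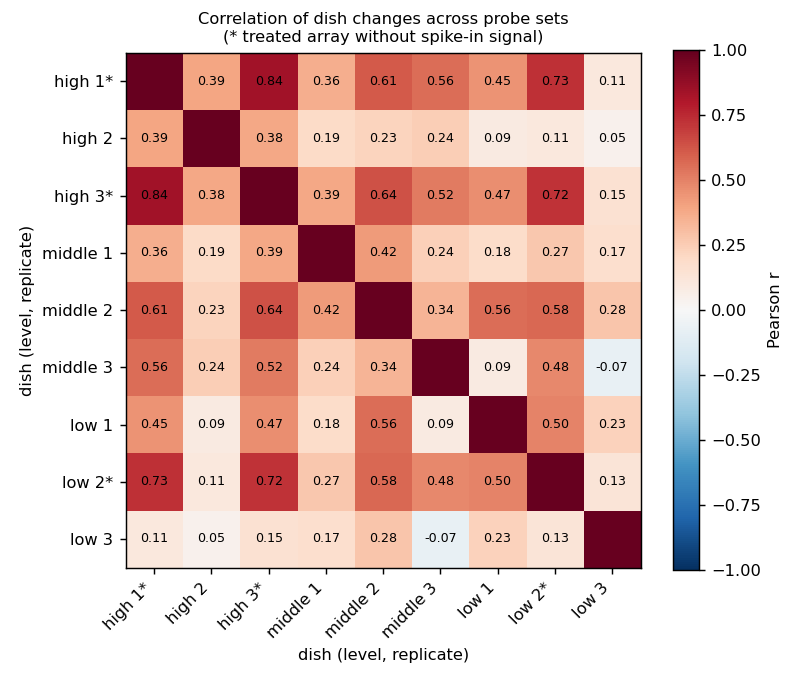
Pearson correlation between the treated minus control differences of the 9 dishes across 31042 probe sets; an asterisk marks dishes whose treated array lacks spike-in signal. The 3 marked dishes correlate with each other at 0.72 to 0.84, and high dish 2 with the other 8 dishes at 0.05 to 0.39.

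Arrays without spike-in signal could also be set against arrays of their own group that had it. Among the untreated controls of N-nitrosopiperidine at its high and low levels, 1 array lacked the signal and 2 had it. The difference between them correlated across probe sets at r = 0.66 and 0.73 with the mean MDA response at the high level. With the mean middle response, whose arrays all had the signal, it correlated at 0.54 and 0.68. It was negative for 86.8% and 94.8% of the 3739 probe sets that fell with MDA, against 37.8% and 36.6% of all probe sets. It was positive for 81.8% and 83.6% of the 2380 probe sets that rose with MDA, against 62.2% and 63.4% of all. Within the low MDA treated group the same difference, 1 array against 2, was negative for 93.5% of the falls, against 43.9% of all, and positive for 71.8% of the rises, against 56.1% of all. This low-level difference correlated at 0.60 and 0.52 with the mean high and middle responses. Within methylcarbamate treated arrays at the high level, 2 against 1, the difference was negative for 35.8% of the falls, against 37.3% of all. Its correlation was -0.03 with the mean high response and -0.02 with the mean middle response. Across all probe sets these 4 differences correlated at -0.12 to 0.12 with high dish 2. Of the falls called with only high dish 2 kept, 78.6% and 93.9% were negative in the N-nitrosopiperidine differences. In the low MDA difference 90.8% of them were negative, and in the methylcarbamate difference 37.4%. Of the rises called with only that dish kept, 14.5% to 41.8% were positive, each time below the share of all probe sets. Each of the 4 differences rests on 1 or 2 arrays per side from different rats. Their part in the changes at the high level was not tested beyond the fits that follow.

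A fit with a term for the dishes that lack spike-in signal called 1002 probe sets at the high level (3.23%), 459 higher (1.48%) and 543 lower (1.75%). The term itself was called for 5006 probe sets (16.1%), 2281 higher (7.35%) and 2725 lower (8.78%). Of its 2725 falls, 1414 were also falls of the high level, a share of 51.9%, against 12% of all probe sets. Of its 2281 rises, 247 were rises of the high level, or 10.8%, against 7.67% of all. The term and the high mean both draw on high dishes 1 and 3. Part of these overlaps is thus built in, and the shares of all probe sets are no like reference. In this fit 1387243_at kept its rise, at 1.95 ± 0.21 (limma adjusted p = 0.000482), and 1378691_at kept its own, at 2.43 ± 0.29 (limma adjusted p = 0.000957). The fall of 1395840_at was -1.98 ± 0.47 with a limma adjusted p of 0.0414, and 1384147_at no longer passed the test, at -2.12 with a limma adjusted p of 0.131.

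The response of high dish 2 alone, with the spread taken from the 5 other dishes with spike-in signal, held 296 calls (0.954%), of which 165 were higher and 131 lower. All 131 falls and 127 of the 165 rises were calls of the 3-dish fit too, which includes this dish. The other dishes gave their spread but not their means to this fit. High dishes 1 and 3, set beside it next, both lack spike-in signal. Most of these falls were also negative in the N-nitrosopiperidine control differences, and the part of the missing signal in the overlap was not tested. Of the 131 falls, 131 were also lower in high dishes 1 and 3 (28.1% of all probe sets were), and 107 were lower in all 3 middle dishes (81.7%, against 16% of all probe sets). Of the 165 rises, 140 were higher in high dishes 1 and 3 (84.8%, against 54.7% of all), and 74 in all 3 middle dishes (44.8%, against 25% of all).

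Leading this dish among the falls was 1370310_at, which was at 10.56, 10.75 and 10.57 in the high controls and at 8.12, 8.19 and 7.99 after treatment. The 3 treated arrays, with and without spike-in signal, lay close together and far below the controls. Its difference was -2.53 ± 0.13 (SE, 3 dishes; limma adjusted p = 9.12e-07). In the middle dishes it did not go down: controls were at 11.28, 11.14 and 11.37 and treated arrays at 11.39, 11.40 and 11.42. Next came 1394844_s_at, whose suffix marks a probe set that matches several transcripts. It was at 9.01, 9.21 and 9.17 in the high controls and at 5.95, 6.67 and 5.91 after treatment, a difference of -2.96 ± 0.16 (limma adjusted p = 9.12e-07). In the middle dishes it was at 10.11, 9.88 and 10.19 in the controls and at 9.76, 9.50 and 9.50 after treatment, lower in all 3 dishes with a mean of -0.47.

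The next comparison asked which responses held at the middle level, whose 6 arrays all had spike-in signal. Its mean response still correlated at 0.54 and 0.68 with the differences within the N-nitrosopiperidine controls, and their part in it was not tested. Of the 2380 rises of the high level, 1086 were higher in all 3 middle dishes (45.6%, against 25% of all probe sets). Of the 3739 falls, 2427 were lower in all 3 (64.9%, against 16% of all). Opposite signs in all 3 middle dishes were found for 60 of the rises and 54 of the falls. The middle differences were small: the falls of the high level had medians of -0.13, -0.30 and -0.32 in middle dishes 1 to 3, and the rises had medians of 0.10, 0.14 and 0.14. The level means were ordered low, middle, high for 1176 of the rises (49.4%) and in the reverse order for 1539 of the falls (41.2%). Among all probe sets these shares were 24.2% and 16.7%. The choice by the high response largely fixes the high mean as the outermost, so the shares of all probe sets are no like reference. No trend with concentration is read from these orders.

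Fitted on its own 3 dishes, without the spread of the other levels, the middle level gave 440 calls (1.42%), 25 higher and 415 lower, of which 11 were at least 2-fold. Their median absolute difference was 0.60. High dish 2, which entered neither that fit nor the choice, was lower for 321 of the 415 falls (77.3%, against 51.6% of all probe sets) and higher for 23 of the 25 rises (92%, against 48.4%). The median of the 415 falls was -0.60 at the middle level and -0.39 in high dish 2. In the fit over all levels 334 of these falls were also falls of the high level (80.5%, against 12% of all probe sets). Of the 25 rises, 14 were rises of the high level (56%, against 7.67% of all). The high level there includes the 2 dishes that lack spike-in signal. That fit also takes its spread in part from the same middle dishes, so for these 2 overlaps the shares of all probe sets are no like reference. The count of 440 middle calls depended on the pairing and on single dishes. Ignoring the pairs of replicate numbers left 1 call, and leaving out replicate 2 left 3, replicate 1 663 and replicate 3 768.

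The largest of these 25 rises was that of 1370269_at. Controls 1 to 3 were at 7.99, 7.66 and 8.12 and treated arrays at 9.41, 9.18 and 9.45. The groups stood apart by more than 1 log2 unit, and the dish differences were 1.42, 1.52 and 1.33. The mean difference of 1.42 had a limma adjusted p of 0.101 in the fit over all levels, with an SE of 0.18, and of 0.000108 in the fit of the middle level alone. Without the pairing the first of these was past the threshold, and 1370269_at was the 1 probe set called there. It was also the 1 middle call with quantile normalization, with limma's trend and robust options and with the spike-in term. At the high level it was at 8.71, 8.69 and 8.92 in the controls and at 9.46, 9.86 and 9.24 after treatment, a difference of 0.75 ± 0.18 (SE, 3 dishes; limma adjusted p = 0.0143). That call was lost without replicate 1, with the high level fitted alone, and without the 3 dishes that lack spike-in signal, where dish 2 gave 1.17. The high call held without the pairing, with quantile normalization, with the trend and robust options and with the spike-in term. In those settings 1370269_at was called at both levels. At the low level the treated arrays were at 8.35, 8.31 and 8.57 and the controls at 8.86, 8.88 and 8.32. These overlapped, and the mean difference was -0.27 with a limma adjusted p of 0.544. The control means of 1370269_at differed between high (8.78) and middle (7.92), so its levels are compared only within a concentration. The difference between the high and the middle response was -0.68 ± 0.26 (limma adjusted p = 0.338).

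The 4 dishes of the high and middle levels with spike-in signal were also taken as 1 group. This comparison was added after the data were seen. It held 119 calls (0.383%), 4 higher and 115 lower, and 4904 probe sets at an unadjusted p under 0.05. Of the 115 falls, 111 were falls of the high level (12% of all probe sets were), but both fits hold high dish 2. Leading the calls were the rises of 1370269_at, by 1.36 ± 0.09 (SE, 4 dishes; limma adjusted p = 0.000838), and 1371954_at, by 0.68 ± 0.10 (limma adjusted p = 0.0426). The leading falls were those of 1395840_at, by -1.22 ± 0.12 (limma adjusted p = 0.0134), and 1387643_at, by -1.20 ± 0.21 (limma adjusted p = 0.0491). The count of calls was 5 without the pairing, 1 without middle replicate 2 or 3, 195 without middle replicate 1 and 440 without the high dish.

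Of these, 1387643_at had a mean difference that grew with the concentration. It was at 7.63, 7.63 and 7.49 in the high controls and at 5.89, 5.43 and 5.98 after treatment. After 3.27 µM it went from 7.51, 7.62 and 8.08 to 6.91, 6.90 and 6.80. Treated arrays were below all controls at both levels, and the lowest array of all was the high one with spike-in signal. At the low level the treated arrays, at 7.77, 7.48 and 7.63, overlapped with controls at 7.81, 7.97 and 7.70. The differences were -1.81 ± 0.17, -0.87 ± 0.17 and -0.20 ± 0.17 (SE, 3 dishes), with limma adjusted p-values of 8.13e-05, 0.924 and 0.641. The high response exceeded the low response by -1.62 ± 0.24 (limma adjusted p = 0.0084), and its difference from the middle response, -0.94 ± 0.24, had a limma adjusted p of 0.131.

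Between levels, the response at 9.81 µM differed from that at 3.27 µM for 114 probe sets (0.367%), 35 higher (0.113%) and 79 lower (0.254%). All 114 were calls of the high level in that direction. It differed from that at 1.09 µM for 453 (1.46%), 99 higher (0.319%) and 354 lower (1.14%), of which 449 were calls of the high level; 4111 (13.2%) had an unadjusted p under 0.05. The middle and low responses differed for 0 probe sets by limma (0%), with 859 (2.77%) at an unadjusted p under 0.05. Without the pairing the first count was 202. Leaving out replicate 1 gave 4, replicate 2 2808 and replicate 3 10, and it was 38 without the 3 dishes that lack spike-in signal. Against the low level, leaving out replicate 1 gave 3, replicate 2 4877 and replicate 3 15, and it was 50 without the 3 dishes that lack the signal.

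The largest rise of the high over the middle response was that of 1382882_x_at, a suffix that marks probes which may bind other transcripts. High controls were at 4.45, 4.96 and 5.05 and treated arrays at 7.79, 9.66 and 7.66. The treated arrays were far above the controls, and the array with spike-in signal was the highest. The middle arrays stood at 3.80, 3.84 and 3.67 in the controls and at 3.55, 3.52 and 3.33 after treatment, values as low as those of the spike-in probe sets on arrays without the signal, so no change can be read there. The high response was 3.55 ± 0.37 and exceeded the middle response by 3.86 ± 0.52 (limma adjusted p = 0.00735), a size that rests on middle values at this low end. For 1395645_at the high controls were at 6.27, 5.69 and 5.75 and the treated arrays at 8.02, 8.54 and 7.55, while all middle and low arrays lay between 5.81 and 6.54. Its high response of 2.13 ± 0.19 exceeded the middle response by 2.40 ± 0.27 (limma adjusted p = 0.00277).

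The largest falls of the high below the middle response were those of 1382924_at and 1372479_at. For 1382924_at the high controls were at 8.88, 8.69 and 8.86 and the treated arrays at 5.95, 6.39 and 5.84, whereas the middle treated arrays were at 8.68, 8.58 and 8.17, each above its control. The difference between the responses was -2.95 ± 0.28 (limma adjusted p = 0.000464). For 1372479_at the high controls were at 8.50, 7.14 and 8.33 and the treated arrays at 5.38, 4.78 and 4.61. All 3 middle dishes were lower as well, by 0.09 to 0.29 on the log2 scale, and the responses differed by -2.88 ± 0.35 (limma adjusted p = 0.00448). Both falls were present in high dish 2, at -2.30 and -2.36.

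The last comparison asked whether the response to MDA stood apart from the spread among the other 28 compounds. Each compound entered with 1 value, its mean dish difference at its highest level, or at its middle level. The highest level of dehydroepiandrosterone was not analysed here, and its middle level stood in for it. Concentrations differ between compounds, so this compares responses as tested and not potency, and MDA is 1 value against 28. At the highest level 252 probe sets stood apart by limma (0.812%), 67 higher and 185 lower, and all were calls of MDA at the high level. For the middle levels there were 0 (0%), with 582 (1.87%) at an unadjusted p under 0.05. The count at the highest level was 1544 without replicate 2, 1 without replicate 3 and 57 without the dishes that lack spike-in signal. Acetaminophen entered with its high treated replicate 1, an array that correlated at 0.31 with the mean of all arrays, against at least 0.84 for every other array. Without that array, an alternative chosen after seeing the data, 1330 probe sets stood apart.

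MDA gave the highest value of all 29 compounds for 1378691_at, 2.34 at 9.81 µM. Ibuprofen followed with 2.21 at 920 µM, and the others had a median of 0.13 and a lowest value of -0.43, so MDA did not stand alone. In high dish 2 it was 3.04, above all 28. Here and below, this sets 1 dish of MDA against the means over dishes of the other compounds, and single dishes spread more than means. Its distance from the mean of the others was 2.10 ± 0.48 (SE; limma adjusted p = 0.0272). For 1373686_at the MDA value of 2.28 was likewise the highest, followed by ibuprofen with 1.36, and the limma adjusted p was 0.0216. In high dish 2 it was 1.93, again above all 28. The arrays behind it were at 6.31, 7.56 and 7.51 in the controls and at 9.31, 9.49 and 9.42 after treatment.

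At the lower end, the mean over the 3 dishes put 1395840_at lowest of all compounds with MDA at both levels. At the highest level MDA was at -3.14 and acetaminophen, at 1000 µM, at -2.20, or -1.83 without its array unlike all others. High dish 2, with spike-in signal, was at -1.41 and so was not lowest: acetaminophen was below it and the other 27 compounds above. With the middle levels MDA was at -1.15 and clonidine, at 303 µM, at -1.09. The distance from the mean of the others was -3.16 ± 0.68 (limma adjusted p = 0.0215) at the highest level and -1.06 ± 0.46 (limma adjusted p = 1) at the middle level. The fall of 1370464_at was the lowest as well, at -2.89 against -1.11 for methapyrilene, with a limma adjusted p of 0.0117. In high dish 2 it was at -1.75, still below all 28. Its high treated arrays were at 3.98, 5.14 and 3.83, the one with spike-in signal being the least low, against controls at 7.38, 6.89 and 7.37. The values of 3.98 and 3.83 are near the low end of the scale, as were treated values of 1395840_at. How far this limits the sizes of these falls was not tested.

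Other compounds moved 1370269_at and 1387243_at more than MDA did. For 1370269_at MDA ranked 10 of 29 at the highest and 7 of 29 at the middle level. Its values of 0.75 and 1.42 stand beside 4.76 for 3-methylcholanthrene at 5.76 µM (2 dishes) and 4.50 for piperonylbutoxide at 31.69 µM. Among the other genotoxic compounds, the highest value was 2.83 for C.I. Direct Black at 17.28 µM, followed by 1.66 for 2-nitrofluorene at 43.13 µM. The lowest was -0.68 for 2-acetylaminofluorene at 0.99 µM. For 1387243_at 3-methylcholanthrene gave 2.97 and piperonylbutoxide 2.87, and MDA ranked 3 of 29 with 1.88. These concentrations differ, and no pair was tested.

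**Figure D5:**
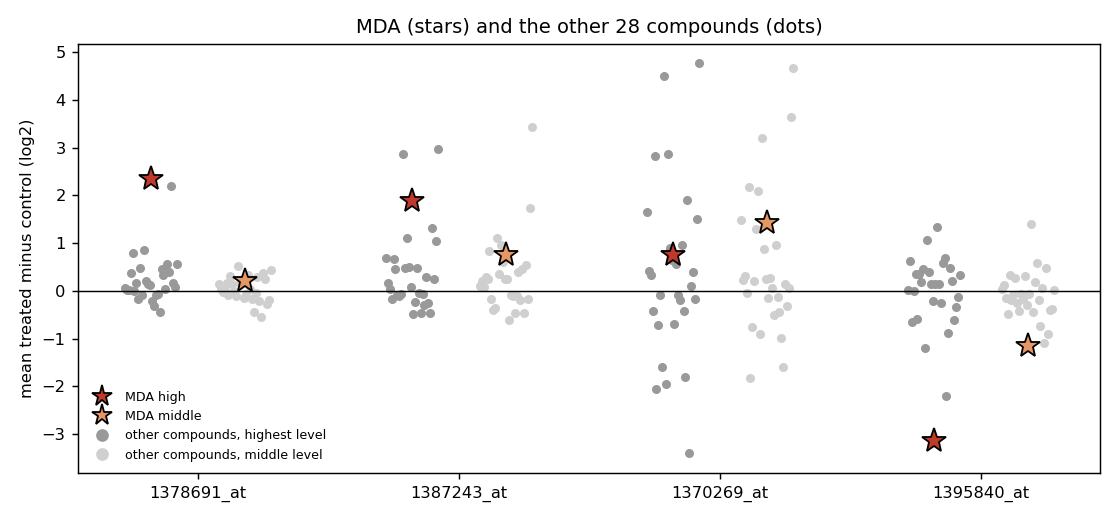
Mean treated minus control difference (log2) of 4 probe sets for MDA (stars) and the other 28 compounds (dots), at the highest level (darker) and the middle level (lighter). MDA is at the upper end for 1378691_at (2.34, next 2.21) and at the lower end for 1395840_at (-3.14, next -2.20; high dish 2 alone -1.41), and lies within the range of the others for 1387243_at and 1370269_at.

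Beta-actin, a cytoskeletal protein used as a loading reference, was at 12.3 to 12.6 on the high treated arrays against 12.1 to 12.7 on their controls. GAPDH, an enzyme of glycolysis, was at 12.4 to 12.8 against 11.9 to 12.5. The difference between its 3′ and 5′ probe sets, which grows when RNA is broken, was 0.36 to 0.57 in high treated and 0.41 to 0.48 in high control arrays, and these overlapped. For beta-actin the same difference was 2.22 to 2.31 in high treated and 2.39 to 2.51 in high control arrays, so it was lower in all 3 treated arrays (exact permutation test, two-sided p = 0.1, the smallest that 3 against 3 allow).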

How the data were processed

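The deposited values were used as given: each is the log2 expression level of 1 probe set on 1 array. The submitters' processing notes name RMA (robust multi-array average), which compresses changes of dim probe sets. For the version of RMA and the set of arrays normalized jointly, the entry is: not given in the sources used here. The deposited compound table (names and classes, in no unit) gave compound names. Of 31099 probe sets, 57 controls were kept out of the tests.

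With R 4.3.3 and limma 3.58.1 (lmFit and eBayes), the 9 differences between the treated and control array of a replicate number were fitted with 1 mean per level, with Benjamini-Hochberg adjustment over 31042 probe sets. An SE is limma's moderated SE. The pairing follows the design text, which puts both in 1 dish. Deviations of paired arrays from their group means correlated above 0.1 in 4 of 9 pairs (-0.20 to 0.44). No 2 arrays held identical values. The limit for missing spike-in signal, 6 on the log2 scale, was set on these data. Procedures were tested on simulated data.

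Named probe sets were the largest rises and falls among those called at the high level and of 1 sign in all 6 high and middle dishes, and the largest in each other comparison. The pathway, marker and motif lists could not be applied without gene names. The arrays, lists and tests were chosen with earlier results of these data known.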

Additional observations from a re-analysis of the deposited data

Results flagged for a closer look

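Among the 4 genes whose control probe sets name them, 3 had treated arrays above all controls at 1 level each. The 5S rRNA probe set, which detects a ribosomal RNA, was higher at the high level by 1.11 on the log2 scale. Its treated arrays were at 8.34, 8.32 and 9.20 and its controls at 7.68, 7.47 and 7.39. The treated array with spike-in signal, at 8.32, was close to the lower of the 2 without it. The difference was -0.09 with 3.27 µM and 0.06 with 1.09 µM. GAPDH was higher at the low level by 0.40, with treated arrays at 12.4, 12.7 and 12.3 and controls at 12.01 to 12.10. The highest of these, at 12.7, is the array without spike-in signal. At this level the difference between the 3′ and 5′ probe sets of GAPDH was also above all controls, at 0.59 to 0.73 against 0.42 to 0.55. So was the mean of the poly-A spike-ins, transcripts added before labelling, by 1.05, and the part of either in the GAPDH value was not tested. Hexokinase, the enzyme that phosphorylates glucose, was higher at the middle level by 0.15, with treated arrays at 4.3513 to 4.5022 and controls at 4.2019 to 4.3509. The lowest treated array and the highest control are a tie at 2 decimals, and these levels are below the array medians. For each of the 3 the exact permutation test gave a two-sided p of 0.1, the smallest that 3 against 3 arrays allow, and 0.4 after adjustment over the 12 tests. Treated arrays above all controls were found for 20.6% of all probe sets at the high level, 12.6% with 3.27 µM and 10% with 1.09 µM.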

How the results depend on the processing

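The number of calls depended strongly on the dishes and on how the spread was estimated. At the high level there were 2480 calls with each level alone, 1002 with the spike-in term, 837 without pairing and without the high treated arrays lacking spike-in, 296 without the 3 dishes lacking it, and 388 to 13806 without 1 replicate. Without the pairing it was 7069. At the middle level there was 1 call without pairing, with quantile normalization, with limma's trend and robust options, and with the spike-in term. Alone there were 440, then 239 with quantile normalization and 1 without pairing, and 3 (lowest), 663 and 768 (highest) when 1 replicate was left out. The low level gave 14 alone and 0 to 186 without 1 replicate. Shared calls of high and middle numbered 1 without pairing, with quantile normalization, with trend and robust options, with the term and without pairing and the 2 arrays, and 288 with each level alone.

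High minus middle gave 202 calls without pairing, 289 with quantile normalization, 69 with trend and robust options, 60 without pairing and the 2 arrays, 38 without the 3 dishes and 4 to 2808 without 1 replicate. High minus low gave 803 with the term, 170 without pairing and the 2 arrays, 50 without the 3 dishes and 3 to 4877 without 1 replicate. Middle minus low gave 1 with trend and robust options. The 4 dishes with spike-in signal gave 25 calls with quantile normalization, 206 with a filter on low values, 5 without pairing, 0 with trend and robust options, and 1 to 440 without 1 dish. Against other compounds, MDA at the high level gave 752 with quantile normalization, 1862 against the 8 other genotoxic compounds, 57 without the 3 dishes, 1330 without the acetaminophen array unlike all others and 1 to 1544 without 1 replicate. The cause of these differences was not tested.

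At the high level the share of rises was 38.9%, 47.9% with quantile normalization and 55.7% on dish 2, and the median of all probe sets was 0.13, or 0.07 after quantile normalization. For 16 probe sets, which include all those named above, none of 350 alternative values at the high and middle levels changed sign. Much of this was fixed beforehand. Dropping the pairing, the filter on low values, the trend and robust options and fitting each level alone leave the mean difference as it was. All 16 had the same sign in all 3 high dishes, so leaving out a dish could not reverse the high mean. The calls were less stable. At the high level those of 1395840_at and 1384147_at were lost in 3 and 4 settings and kept in 8 and 7. The fits without the 3 dishes and without the acetaminophen array, the term at the middle and low levels and the further fits of the middle level alone were chosen after seeing the data.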
